A study of Mus musculus with 9 samples.

Results

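Chromatin accessibility at 40 mouse interferon-response genes was compared between wild-type (WT) cells and B10 and G7, which are *Atrx* knockout (KO) clones. A region of open chromatin was taken as a member when the protein-coding start site closest to it belonged to a listed gene, or when it lay within 1 kb of such a start site. This gave 92 of the 97338 consensus regions of the series, of which 28 lay within 1 kb of a listed start site (promoter regions) and 64 lay farther away (distal regions).

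The cells were C3H/10T1/2, an established mouse line with the properties of mesenchymal progenitor cells (MPCs), and ATAC-seq was run on 3 WT, 3 B10 and 3 G7 libraries. WT cells had received a Cas9 vector with no guide, and each KO line was 1 clone, grown from a cell that had received 1 of 2 guides against *Atrx*, the X-linked gene of a chromatin remodeller. With 1 clone per guide, the effect of the knockout and the history of a clone cannot be told apart. Single transfected cells were seeded in the study, and whether WT was also grown from 1 cell is not stated. A difference shared by both clones therefore cannot be told from a trait of the WT line. Nothing says that the 3 libraries of a line came from separate cultures, so the spread between them may be technical. The labels name no interferon treatment, and peak lists do not read the edited sequence, so the labels of the clones could not be checked against *Atrx*.

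Interferons are secreted when cells sense foreign nucleic acid. Their receptors activate JAK kinases, and STAT2 then takes part with IRF9 in a complex that binds the interferon-stimulated response element (ISRE) in promoters of antiviral genes. Interferon gamma acts on a separate element called GAS, and IRF7 amplifies the type I response.

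Values are ranks. Each peak was placed among all peaks of the same library by −log10 q and given a percentile, so 100 marks the strongest. A region counted as gained where 2 or 3 of the 3 clone libraries had a peak in it and 0 of 3 WT libraries did, and as lost where the sides were exchanged. Regions with a peak in all 9 libraries (47431, of which 46 were members) were also compared by rank with limma, with p-values adjusted over all 47431. The WT libraries held 78139 to 81226 peaks, those of B10 81315 to 88535 and those of G7 76385 to 79464. Every B10 library thus held more peaks than every WT or G7 library, and presence was also counted with equal numbers of peaks. The depth of the libraries is unknown, so a missing peak means only that none was called. As a check of cell type, 7 of 8 mesenchymal marker genes (*Pdgfra*, *Pdgfrb*, *Prrx1*, *Twist1*, *Col1a1*, *Eng* and *Cd44*, not *Thy1*) had a promoter region with a peak in all 9 libraries. None of the 4 epithelial markers had one, and 2 of 6 immune markers (*Csf1r* and *Spi1*) had a promoter region, neither of them with a peak in all 9.

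The core searched was GAAA, any 2 bases and GAAA, on both strands, with overlapping matches counted apart. In the 300-base promoters of the RefSeq table (build GRCm38.p6, 250 bases before to 50 after the start), 15 of the 32 listed genes found there (46.9%) held it, against 4.02% of 16515 protein-coding genes. Within 100 bases of the summit it stood in 10 of the 28 promoter regions (35.7%, against 1.69% of all 13933 promoter regions) and in 1 of the 64 distal regions (1.56%, against 2.71% of all 83405 distal regions). The GAS letters (TTC, any 3 bases and GAA) were found in 9 of the 32 promoters (28.1%, against 9.02%), and the AP-1 letters (TGA, any base and TCA) in 8 (25%, against 8.16%). Median GC content was 53% for the listed RefSeq promoters and 57.7% for all. In the summit windows it was 53.2% for member promoter regions and 62.7% for all promoter regions. The backgrounds were not matched for GC content. *Mx1*, *Ifi27*, *Oas2*, *Usp18*, *Parp9*, *Zbp1*, *Mx2* and *Parp14* had no entry in the table.

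The following promoters are shown because the comparisons below turn on them, with the matches to the ISRE core in capitals and each sequence read 5′ to 3′ on the strand of its gene. *Bst2* is chr8:71537423-71537722 on the minus strand, *Isg15* is chr4:156200769-156201068 on the minus strand, *Cxcl10* is chr5:92348840-92349139 on the minus strand, and *Irf7* is chr7:141266375-141266674 on the minus strand.
Bst2: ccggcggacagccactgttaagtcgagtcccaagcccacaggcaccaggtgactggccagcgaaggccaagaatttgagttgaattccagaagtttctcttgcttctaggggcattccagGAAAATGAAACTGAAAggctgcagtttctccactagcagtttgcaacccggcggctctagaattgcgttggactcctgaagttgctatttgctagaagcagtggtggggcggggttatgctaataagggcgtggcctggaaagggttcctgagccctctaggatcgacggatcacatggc
Isg15: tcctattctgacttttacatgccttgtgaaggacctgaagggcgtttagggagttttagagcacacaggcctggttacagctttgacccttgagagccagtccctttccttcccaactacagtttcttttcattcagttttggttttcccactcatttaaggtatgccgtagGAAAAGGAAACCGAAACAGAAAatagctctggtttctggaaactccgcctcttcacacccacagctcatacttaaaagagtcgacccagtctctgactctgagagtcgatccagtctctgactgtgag
Cxcl10: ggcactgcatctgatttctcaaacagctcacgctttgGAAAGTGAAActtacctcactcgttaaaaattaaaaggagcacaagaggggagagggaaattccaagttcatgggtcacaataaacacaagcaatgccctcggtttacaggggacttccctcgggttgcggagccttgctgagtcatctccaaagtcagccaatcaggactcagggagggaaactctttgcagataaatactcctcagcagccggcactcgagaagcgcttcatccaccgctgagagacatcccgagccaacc
Irf7: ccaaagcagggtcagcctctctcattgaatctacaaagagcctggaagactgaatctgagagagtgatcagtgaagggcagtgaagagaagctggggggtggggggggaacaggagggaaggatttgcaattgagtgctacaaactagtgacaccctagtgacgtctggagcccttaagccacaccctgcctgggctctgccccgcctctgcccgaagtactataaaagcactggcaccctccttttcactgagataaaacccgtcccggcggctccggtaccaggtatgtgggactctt

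In *Isg15* 3 overlapping matches formed a single run that began at base -78 relative to the start. In *Bst2* a pair of overlapping matches began at -130, and in *Cxcl10* a single match began at -213. The core letters were not found in this window of *Irf7*. Shorter stretches with 10 bases on either side are given for *Ifitm2* (chr7:140955988-140956017, minus strand) and *Gbp3* (chr3:142559989-142560024, plus strand), whose promoter regions also differed between lines.
Ifitm2: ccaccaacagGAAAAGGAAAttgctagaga
Gbp3: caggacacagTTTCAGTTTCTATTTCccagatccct

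Of the 39 listed genes with a protein-coding start site in GENCODE M21 (*Mx2* has none there), 30 had a promoter region (76.9%), against 59.8% of 21829 protein-coding genes. In 24 genes (61.5%) that region held a peak in every library, against 53.3% of all genes. The genes with no promoter region were *Ifih1*, *Oas1a*, *Oas2*, *Oas3*, *Oasl1*, *Trim25*, *Rsad2*, *Cmpk2* and *Psmb8*, and of these *Rsad2* had a promoter peak in a single WT library and the others in no library. Promoter regions with a peak ranked high, with medians of 78.8 to 85.1 over the 9 libraries, close to but below the 86.5 to 89.3 of all promoter regions. Distal member peaks had medians of 38.1 to 58.0, and all distal peaks 46.1 to 51.2. The distal regions lay 1.01 to 63.9 kb from the listed start site (median 9.76 kb), and 39 were intergenic, 21 lay in introns and 4 in exons.

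**Figure D1:**
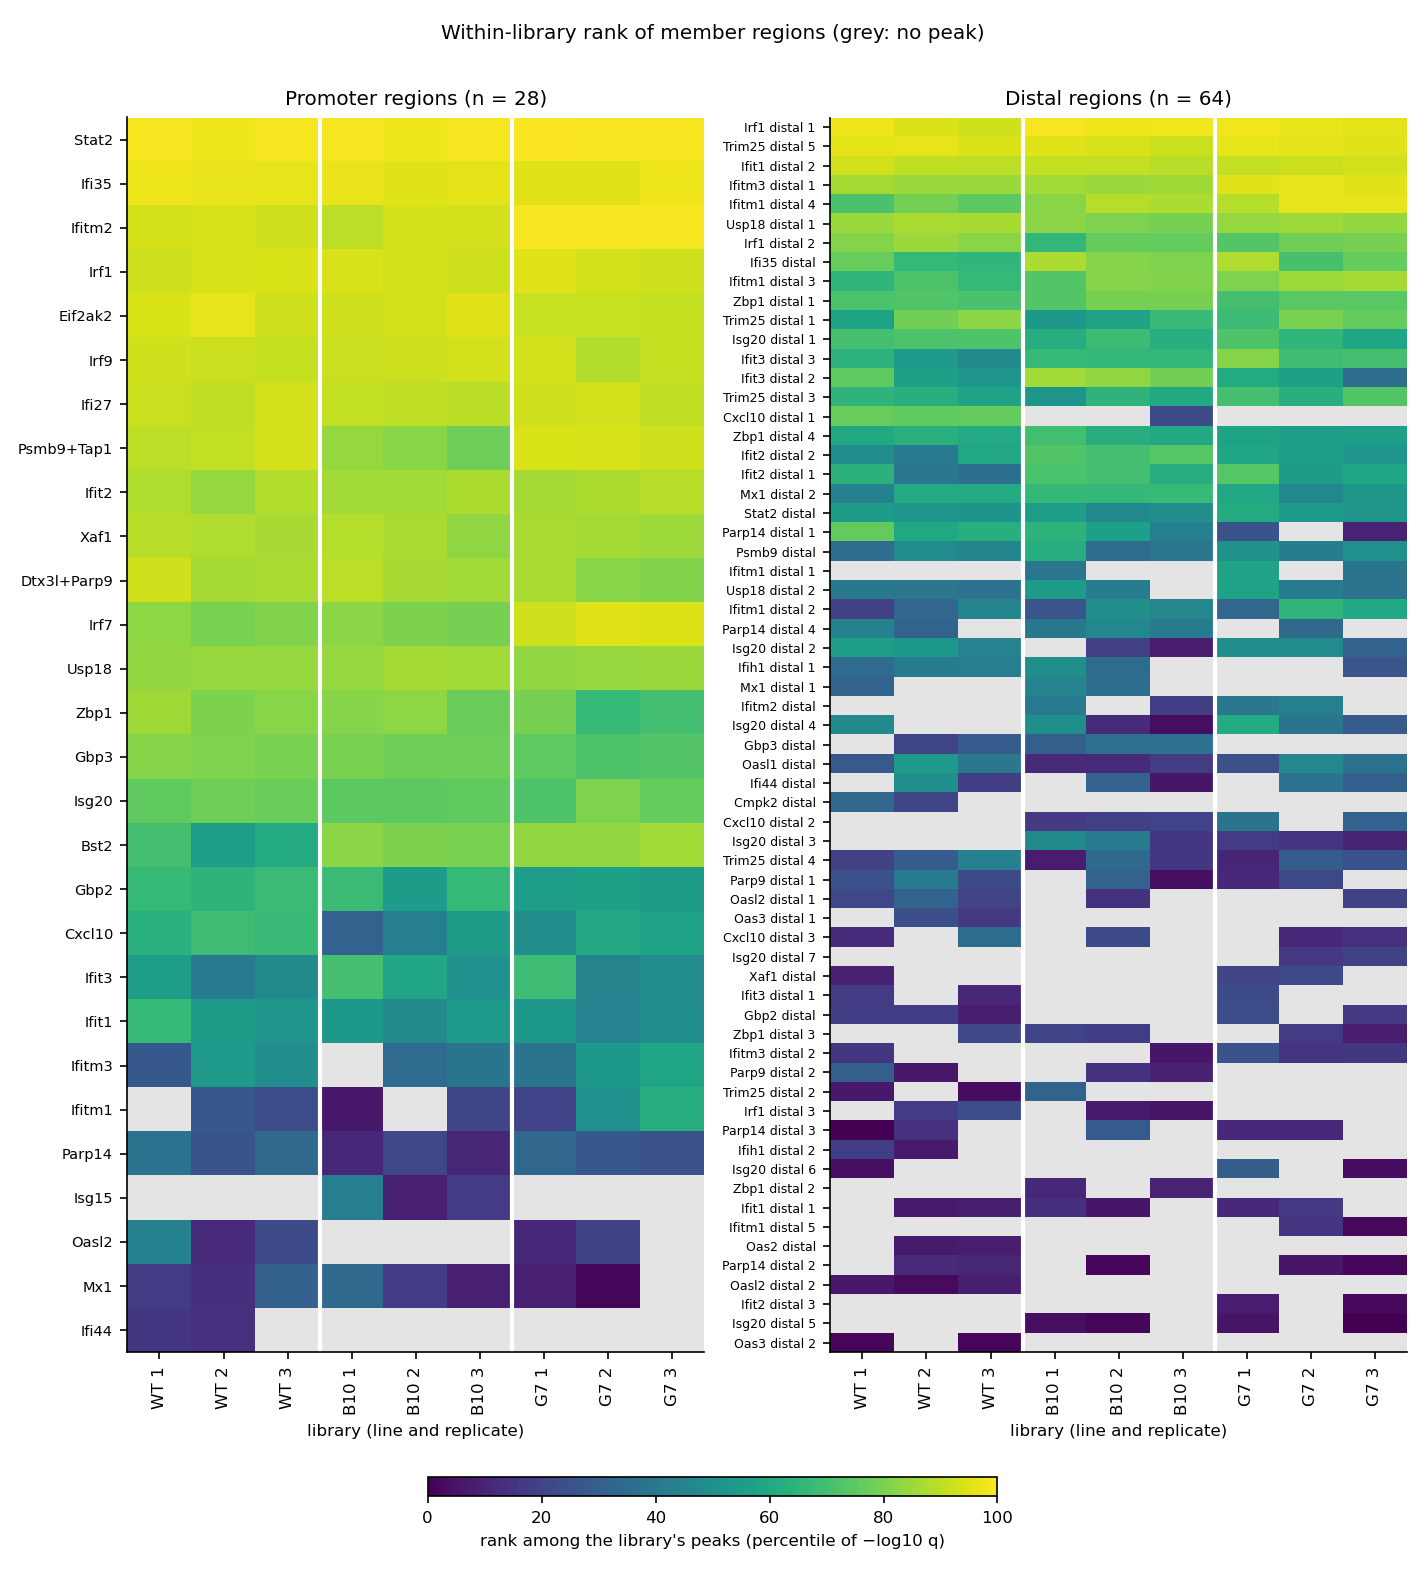
Rank of each of the 28 promoter regions (left) and 64 distal regions (right) in the 9 libraries, 3 per line, ordered by mean rank; grey marks a library with no peak. Most promoter rows keep a similar colour across the lines, the *Irf7* and *Bst2* rows change colour between lines, and grey cells gather among distal regions of low rank.

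By presence or rank, 9 of the 28 promoter regions were called in at least 1 clone. The same union was not computed over all promoter regions, so this count has no background. In B10, 1 of 28 promoter regions was gained and 2 were lost, against 2.74% and 3.83% of all promoter regions. In G7, 0 were gained and 1 was lost, against 2.56% and 2.97%. In both clones 0 were gained and 1 was lost, against 1.23% and 1.97%. Of the 22 promoter regions tested in rank, 1 was higher and 2 were lower in B10 (background 10.6% and 5.81% of all promoter regions tested), and 3 were higher and 1 was lower in G7 (background 6.2% and 5.97%). The 3 higher in G7 include *Irf7* and *Ifitm2*, which share a stretch of chromosome 7 where most regions were higher in G7. The median difference over these 22 was -1.15 percentile points in B10 and -0.585 in G7, and over all 11559 promoter regions tested it was 0.304 and 0.201. The same WT libraries served both comparisons. The remaining 16 tested promoter regions were called in neither clone, with differences from -18.5 to 11.8.

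**Figure D2:**
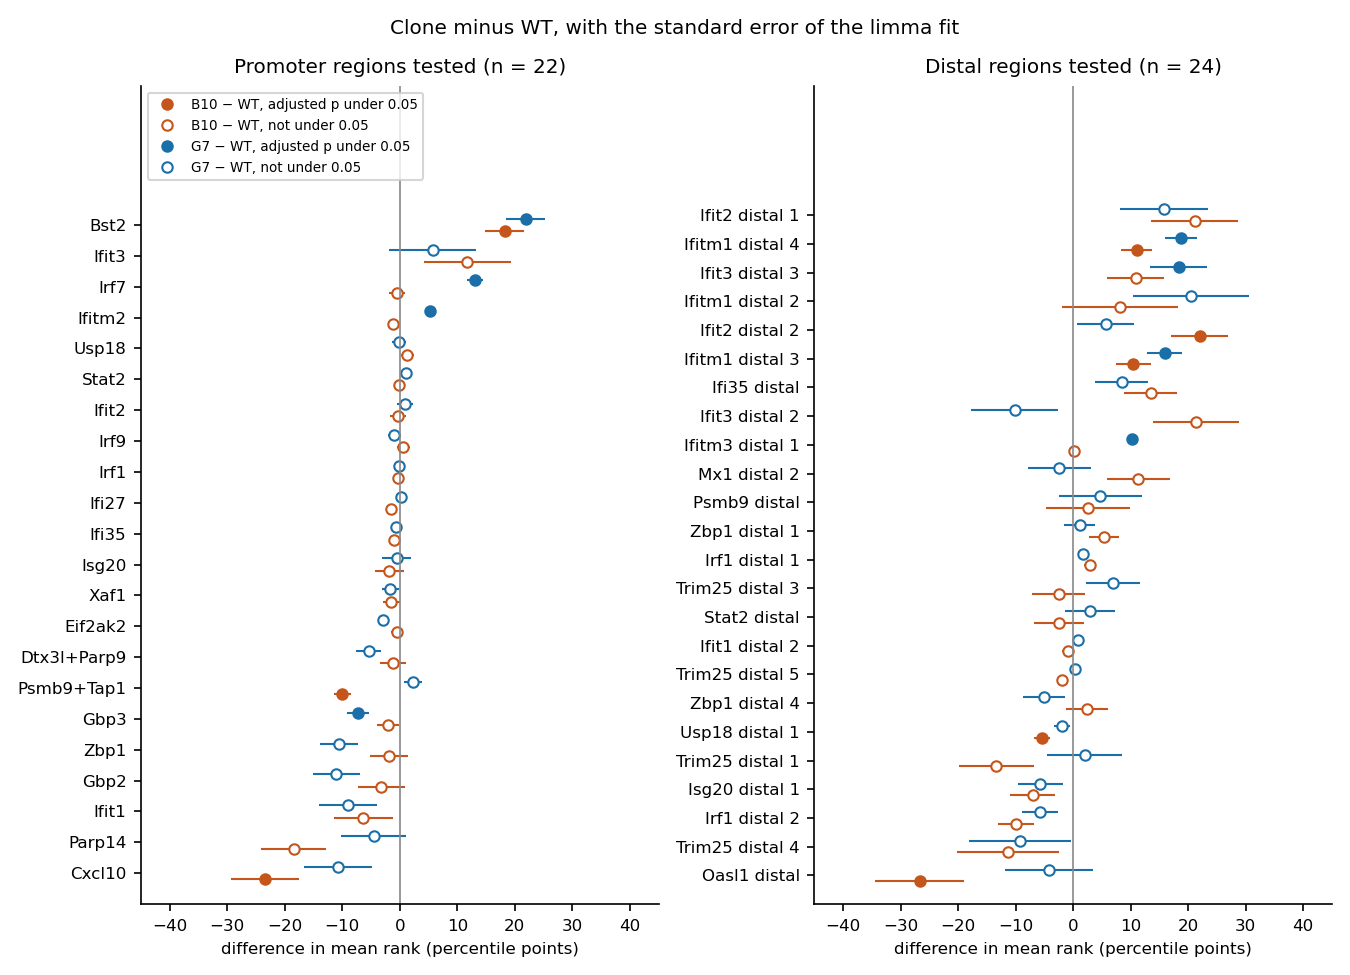
Difference in mean rank, clone minus WT, in percentile points for the 22 promoter regions and 24 distal regions tested; bars are standard errors of the limma fit and filled points have an adjusted p under 0.05. *Bst2* is filled for both clones (18.2 in B10, 21.9 in G7), and *Irf7* and *Ifitm2* for G7 only, a difference between the clones that is tested in the text.

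Among the 4 regulators, all of which had a promoter peak in every library, the *Irf7* promoter was higher in G7 and the others were not called. *Irf7* (chr7:141265034-141266815) ranked 82.9, 79.8 and 80.9 in WT, 82.7, 80.1 and 79.5 in B10, and 92.9, 95.1 and 94.7 in G7. All 3 G7 libraries were above all others, and the B10 and WT libraries overlapped. The difference of G7 from WT was 13.0 ± 1.40 percentile points (SE, n = 3 and 3, limma adjusted p = 0.000912), that of B10 from WT was -0.451 ± 1.40 (limma adjusted p = 0.87), and B10 and G7 differed by -13.5 ± 1.40 (limma adjusted p = 0.00109). *Stat2*, whose product is the partner of IRF9, ranked 97.5 to 98.8 in WT, 97.5 to 98.6 in B10 and 99.1 to 99.6 in G7. *Irf1*, an interferon-induced activator, had ranks of 92.3 to 94.5 in WT, 92.4 to 94.0 in B10 and 92.5 to 95.1 in G7. *Irf9* gave 91.2 to 92.7, 92.0 to 93.4 and 88.5 to 93.4 in the same order.

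*Irf7* lies in a stretch of chromosome 7 whose regions were higher in G7 in general. Within 5 Mb of its start, 263 regions had a peak in all 9 libraries, and their median difference of G7 from WT was 9.34 points, with 209 of 263 above 0, while that of B10 was -0.029. The 69 regions from -4.37 to -1.13 Mb of the *Irf7* start had a median of -2.04 in G7, and the 194 regions from -0.461 to 4.06 Mb had a median of 11.7, with 183 of 194 above 0 (the split at 1 Mb was chosen after seeing the values). After subtraction of the local level the G7 difference at *Irf7* was 4.51 (limma adjusted p = 0.0871), and with peaks ranked by fold enrichment it was 4.31 (limma adjusted p = 0.615).

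**Figure D3:**
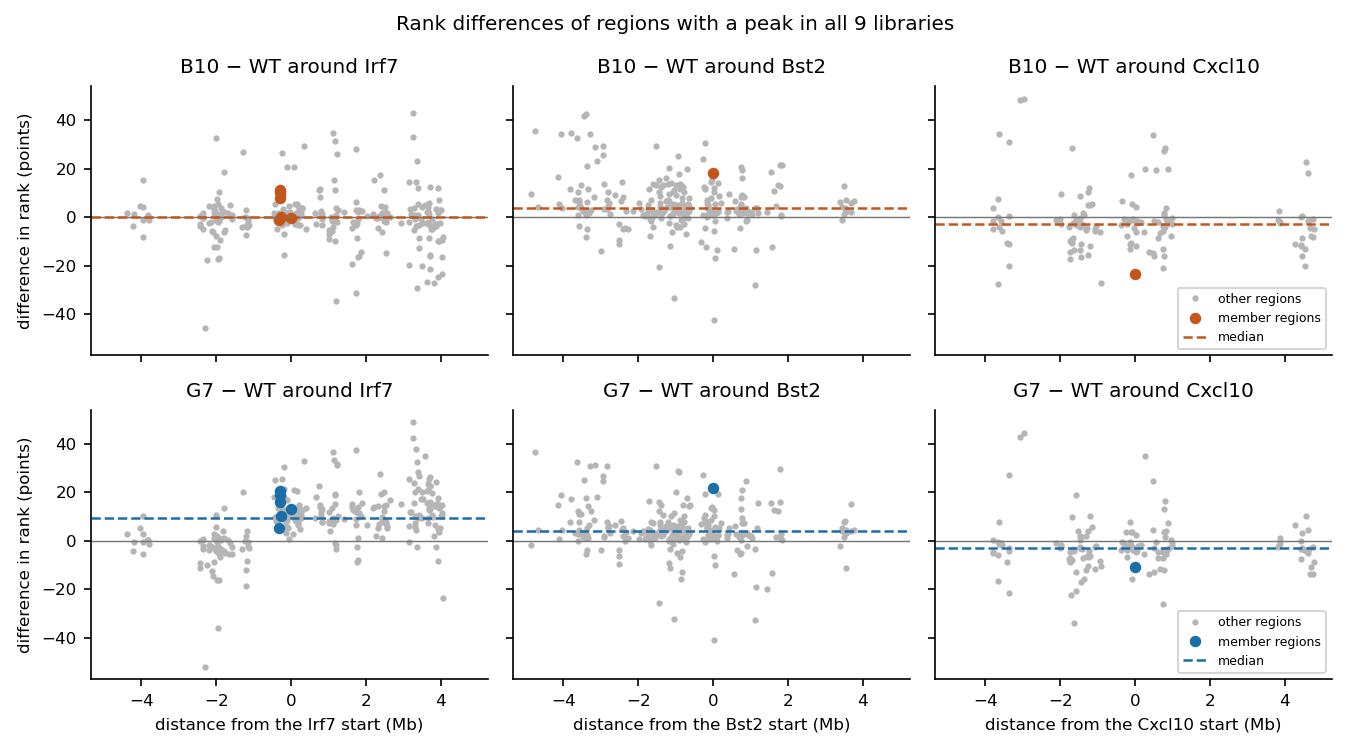
Rank difference of every region with a peak in all 9 libraries against its distance in Mb from the *Irf7*, *Bst2* and *Cxcl10* start sites, for B10 (top) and G7 (bottom) minus WT; coloured points are member regions and the dashed line is the median. In G7 nearly the whole stretch from shortly before *Irf7* onward lies above 0 (183 of 194 regions), while *Bst2* and *Cxcl10* lie apart from the middle of their surroundings.

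The stretch with *Irf7* also holds the *Ifitm* cluster, whose products are membrane proteins that block virus entry. There, 12 member regions lay within 311 kb, 6 of them tested, and all 6 had a higher mean in G7 than in WT, against 4 of 6 in B10. The *Ifitm2* promoter (chr7:140955514-140956750) ranked 93.7, 93.8 and 92.7 in WT, 90.0, 93.7 and 93.2 in B10, and 98.4, 98.5 and 99.0 in G7. Every G7 library was above every other library, by 5.28 ± 0.892 points over WT in the mean (SE, limma adjusted p = 0.00693), and G7 also differed from B10 (limma adjusted p = 0.00426). The call rests on the scale: after subtraction of the local level the difference was -3.24 (limma adjusted p = 0.0749, and 0.0108 when the replicate number was also a block), and by fold enrichment it was -1.03 (limma adjusted p = 0.914).

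The *Ifitm3* distal region 1.23 kb downstream of its start site (chr7:141008203-141009541), chosen after its values were seen, ranked 86.6, 84.9 and 85.1 in WT, 86.2, 84.9 and 85.8 in B10, and 95.3, 96.7 and 95.2 in G7. The G7 libraries stood clear of the others by 10.2 ± 0.907 points against WT (SE, limma adjusted p = 0.000416). After subtraction of the local level this was 1.68 (limma adjusted p = 0.402), and by fold enrichment it was -2.37 (limma adjusted p = 0.86). The *Ifitm3* promoter itself held no peak in 1 B10 library and ranked 27.4 to 53.9 in WT, 35.0 and 38.9 in the other B10 libraries and 38.4 to 59.0 in G7, so it was not tested. The *Ifitm1* promoter had peaks in 2 WT, 2 B10 and 3 G7 libraries, with ranks of 23.6 and 27.6, 7.01 and 20.9, and 20.3 to 62.8.

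Without a replicate block, a pair of intergenic regions downstream of *Ifitm1* were the only tested distal members called the same way in both clones. The same share over all distal regions was not computed. The one 5.3 kb away (chr7:140973341-140974768) ranked 65.6, 72.1 and 66.9 in WT, 73.2, 81.7 and 81.1 in B10, and 80.7, 85.3 and 86.4 in G7. Neither clone overlapped WT. The differences were 10.5 ± 3.06 in B10 (SE, limma adjusted p = 0.0444) and 15.9 ± 3.06 in G7 (SE, limma adjusted p = 0.012). The B10 call was lost without WT 1 (0.0778), WT 3 (0.122), B10 2 (0.144), B10 3 (0.137), G7 2 (0.0656) or G7 3 (0.0702), and the G7 call without G7 3 (0.0581). After subtraction of the local level the differences were 10.0 (limma adjusted p = 0.0554) and 7.41 (limma adjusted p = 0.186).

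The region 13.6 kb downstream (chr7:140981684-140982603) ranked 71.3, 79.1 and 75.0 in WT, 82.1, 88.7 and 87.5 in B10, and 88.9, 96.6 and 96.2 in G7. All clone libraries lay above all WT libraries. The differences were 11.0 ± 2.74 in B10 (SE, limma adjusted p = 0.0242) and 18.8 ± 2.74 in G7 (SE, limma adjusted p = 0.00377). The B10 call was lost without WT 3 (0.0685), B10 2 (0.0869) or B10 3 (0.0794). By fold enrichment the differences of this region were 8.52 in B10 and 6.22 in G7 (limma adjusted p = 0.105 and 0.293), and those of the nearer one 7.20 and 0.51 (limma adjusted p = 0.359 and 0.974).

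*Bst2* encodes tetherin, which holds budding virus particles at the cell surface, and its promoter was higher in both clones. The region (chr8:71537166-71537931) ranked 70.5, 56.1 and 61.3 in WT, 82.6, 80.2 and 79.7 in B10, and 83.8, 83.9 and 86.0 in G7. The lowest clone library was above the highest WT library. The difference was 18.2 ± 3.40 points in B10 (SE, n = 3 and 3, limma adjusted p = 0.00711) and 21.9 ± 3.40 in G7 (SE, limma adjusted p = 0.00492), and B10 and G7 differed by -3.69 ± 3.40 (limma adjusted p = 0.587). The median fold enrichment was 12.6 in WT, 16.6 in B10 and 17.5 in G7. The 264 tested regions within 5 Mb, *Bst2* among them, had median differences of 3.77 in B10 and 3.86 in G7, and after subtraction of the local level the *Bst2* differences were 14.6 and 18.0 (limma adjusted p = 0.0104 and 0.00648). Both *Bst2* calls passed 0.05 under all 17 other settings tried.

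**Figure D4:**
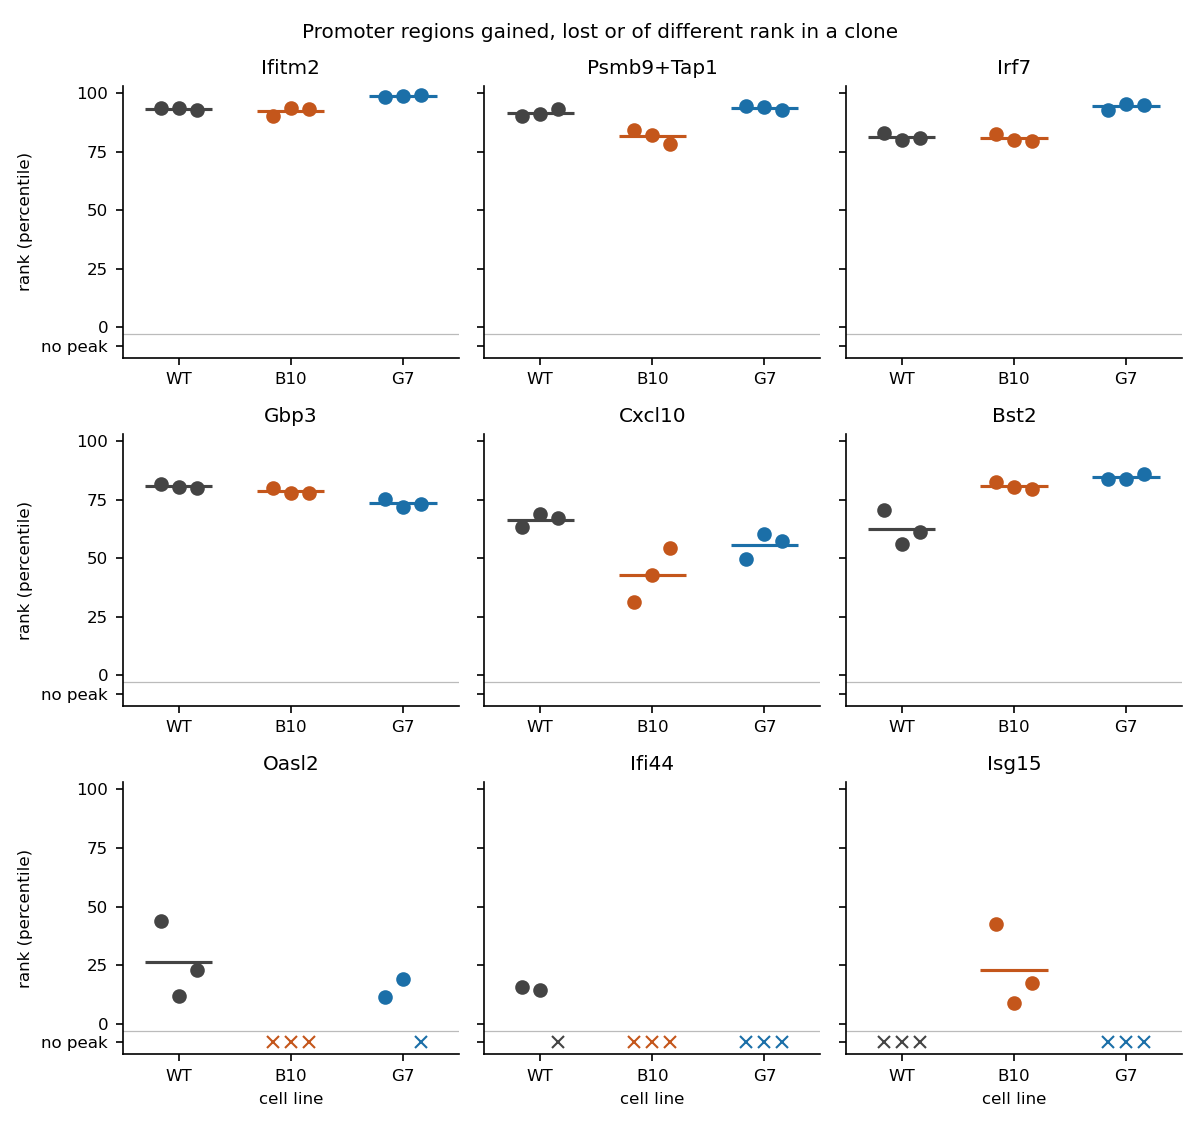
Rank in each library of the 9 promoter regions that were gained, lost or of different rank in a clone; crosses mark libraries with no peak and lines the mean where all 3 libraries of a line have one. *Bst2* is higher in both clones, *Irf7* and *Ifitm2* are higher in G7, *Psmb9*+*Tap1* and *Cxcl10* are lower in B10, *Gbp3* is lower in G7, and *Isg15*, *Ifi44* and *Oasl2* differ in which libraries hold a peak.

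*Gbp2* and *Gbp3* encode guanylate-binding proteins, which coat intracellular pathogens. The *Gbp3* promoter (chr3:142559667-142561048) ranked 81.9, 80.5 and 80.0 in WT, 80.0, 78.1 and 78.1 in B10, and 75.2, 72.0 and 73.4 in G7. G7 lay below the other lines, by -7.27 ± 1.96 against WT (SE, limma adjusted p = 0.0445). This call was lost without any 1 of the 9 libraries (limma adjusted p from 0.0555 to 0.118) and by fold enrichment, where the difference was 3.52 (limma adjusted p = 0.496). The *Gbp2* promoter gave 66.8, 65.1 and 68.1 in WT, 68.3, 55.2 and 67.0 in B10, and 55.8, 56.8 and 54.4 in G7, with no overlap of G7 and WT, but the difference of -11.0 ± 4.14 did not pass (limma adjusted p = 0.127). *Mx1*, a dynamin-like GTPase, had a weak promoter region, with ranks of 13.6 to 30.7 in WT, 9.0 to 34.1 in B10 and 1.24 and 8.75 in the 2 G7 libraries with a peak.

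The shared promoter of *Psmb9* and *Tap1*, which encode an immunoproteasome subunit and a peptide transporter of antigen presentation, was lower in B10. The region (chr17:34186986-34188151) ranked 90.2, 90.9 and 93.1 in WT, 84.2, 82.0 and 78.0 in B10, and 94.4, 93.9 and 92.7 in G7. B10 was below the other lines in every library, while WT and G7 overlapped. The differences were -9.97 ± 1.53 for B10 against WT (SE, limma adjusted p = 0.00295), 2.28 ± 1.53 for G7 against WT (limma adjusted p = 0.39) and -12.3 ± 1.53 for B10 against G7 (limma adjusted p = 0.00254). Regions within 5 Mb moved the other way in B10, with a median of 3.40. By fold enrichment the B10 difference was -5.41 (limma adjusted p = 0.156).

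*Cxcl10*, the chemokine that draws activated T cells, had a lower rank in B10 at its promoter, and a region upstream of it was lost in G7. The promoter (chr5:92348544-92349842) ranked 63.3, 68.8 and 67.3 in WT, 31.5, 43.0 and 54.4 in B10, and 49.6, 60.5 and 57.2 in G7. Neither clone overlapped WT. The difference was -23.5 ± 5.92 in B10 (SE, limma adjusted p = 0.0253) and -10.7 ± 5.92 in G7 (SE, limma adjusted p = 0.289), and B10 and G7 differed by -12.8 ± 5.92 (limma adjusted p = 0.243). The B10 call was lost without WT 2 (0.0838), WT 3 (0.0806), B10 1 (0.0685) or B10 2 (0.0709), and by fold enrichment the difference was -0.578 (limma adjusted p = 0.966). The 135 tested regions around it had medians of -2.70 in B10 and -3.11 in G7.

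A distal region 4.28 kb upstream of *Cxcl10*, in an intron of *Art3* (chr5:92353167-92354200), ranked 76.7, 75.5 and 76.4 in WT. It had no peak in any G7 library, and in B10 a peak in 1 library only, at rank 22.0. It was called lost in G7 (it is named here after its values were seen), and it was the single member that remained lost in G7 when WT peaks were required to reach a −log10 q of 10. A further region 9.15 kb upstream (chr5:92358037-92358367) went the other way, with no peak in WT, ranks of 16.5, 19.1 and 20.2 in B10, and ranks of 38.3 and 31.6 in 2 G7 libraries.

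*Isg15* encodes a ubiquitin-like protein that is attached to other proteins after interferon, and its start site held a peak in B10 libraries only. The promoter region (chr4:156200606-156200983) ranked 42.6, 8.88 and 17.5 in the 3 B10 libraries and had no peak in WT or G7, so it was gained in B10 and also differed in presence from G7. All 3 B10 peaks spanned the run of ISRE matches printed above, reaching from -165 to 212, from -97 to 120 and from -151 to 26 bases relative to the start site. The gain was no longer called when a −log10 q of at least 10 was asked for. A separate region lies 2594 bases from the *Isg15* start site, over the start of *Agrn* (chr4:156197082-156198224), and is therefore no member. It held a peak of rank 91.7 to 96.7 in WT and in no clone library.

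**Figure D5:**
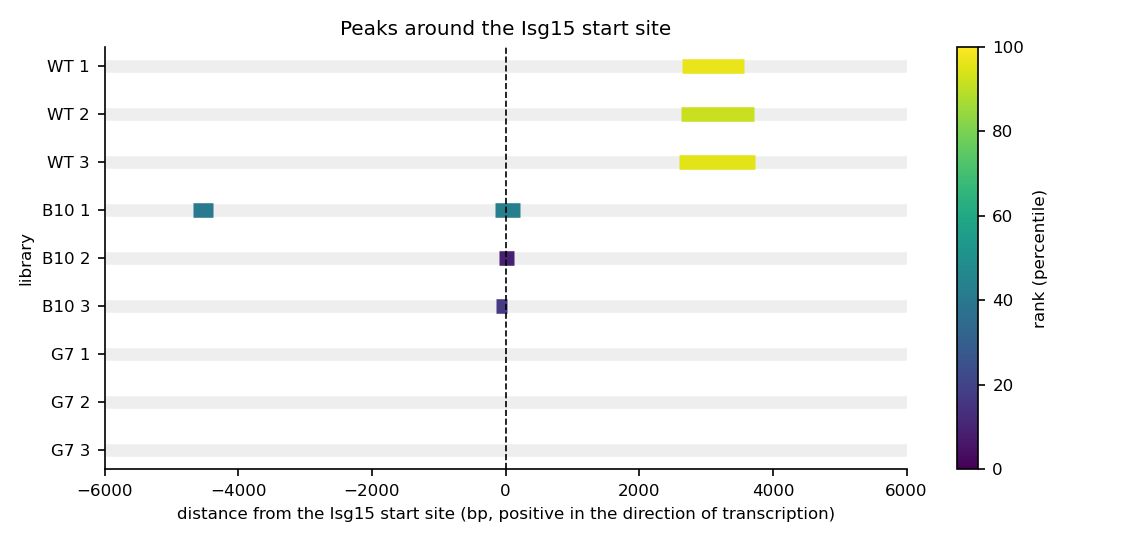
Peaks within 6 kb of the *Isg15* start site in each of the 9 libraries, coloured by rank, with distance in bp along the direction of transcription. The 3 B10 libraries hold a peak at the start site, the 3 WT libraries hold a strong peak 2594 bp or more downstream instead, and the 3 G7 libraries hold neither.

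The other promoter regions of the genes of ISG15 conjugation and ADP-ribosylation were not called, and *Trim25* had no promoter region. *Usp18*, the protease that removes ISG15, ranked 83.8 to 84.7 in WT, 84.6 to 86.4 in B10 and 83.7 to 84.8 in G7. The promoter shared by *Dtx3l* and *Parp9*, partners in a ubiquitin ligase complex, ranked 86.5 to 92.9, 86.3 to 90.0 and 80.9 to 87.4. *Parp14*, an ADP-ribosyltransferase, ranked 38.2, 26.1 and 34.6 in WT, 11.5, 21.2 and 10.8 in B10, and 32.9, 27.5 and 24.9 in G7. B10 did not overlap WT there, but the difference of -18.5 ± 5.63 missed the threshold (limma adjusted p = 0.0517, and 0.0327 with the replicate number as a block).

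Among sensors and RNA-binding effectors, the *Ifit* promoters held a peak in every library and none was called. *Ifit2* ranked 84.2 to 88.4 in WT, 86.0 to 87.8 in B10 and 86.7 to 89.2 in G7. *Ifit1* ranked 52.2 to 66.9, 47.3 to 54.0 and 44.3 to 53.4, and *Ifit3* ranked 41.3 to 55.7, 50.7 to 70.6 and 44.6 to 68.8. These genes encode proteins that bind viral RNA. *Eif2ak2*, the kinase PKR that senses double-stranded RNA, ranked 92.9 to 96.2, 93.0 to 95.5 and 91.1 to 91.8. *Zbp1*, a sensor of Z-form nucleic acid, ranked 80.4 to 85.8 in WT, 77.5 to 83.0 in B10 and 66.8 to 79.4 in G7, a G7 difference of -10.6 ± 3.29 (SE, limma adjusted p = 0.0723, and 0.00988 with the block). Tested regions within 5 Mb of *Zbp1* had a median G7 difference of -4.85. *Isg20*, an exonuclease gene, ranked 72.1 to 80.7 over all libraries.

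Inside the *Ifit* cluster, 1 distal region was called higher in B10 and 1 in G7 without the block, and more with it. An intronic region of *Ifit2* 2.25 kb downstream of its start (chr19:34552963-34553703) ranked 48.9, 41.4 and 60.1 in WT, 72.7, 69.9 and 73.6 in B10, and 58.7, 56.2 and 52.4 in G7. B10 was above both other lines, by 22.0 ± 4.94 against WT (SE, limma adjusted p = 0.0158, 0.0517 without WT 2 and 0.0564 without B10 3). In all, this call was lost under 3 of the 17 other settings tried. A region 5.69 kb upstream of *Ifit3* (chr19:34577012-34577841) ranked 64.7, 53.8 and 48.0 in WT, 67.0, 66.1 and 66.1 in B10, and 81.7, 69.4 and 70.4 in G7, and G7 exceeded WT by 18.3 ± 4.96 (SE, limma adjusted p = 0.0453). That call was lost under 12 of the 17 other settings tried. These included leaving out any 1 of 8 libraries (limma adjusted p from 0.0612 to 0.145), and the call held without WT 1. With the replicate number as a block the same region was higher in both clones, by 10.9 in B10 and 18.3 in G7 (limma adjusted p = 0.0377 and 0.00447). So was an intronic region 1.01 kb downstream of the *Ifit2* start (chr19:34551723-34552365), which ranked 64.1, 40.1 and 36.6 in WT, 71.6, 70.4 and 62.2 in B10, and 73.6, 55.2 and 59.3 in G7. Its B10 libraries but for 1 lay above all WT libraries, its G7 libraries overlapped WT, and the differences were 21.1 and 15.8 (limma adjusted p = 0.00589 and 0.0299 with the block, 0.0883 and 0.224 without). These regions were chosen after their values were seen. Median differences within 5 Mb of *Ifit2* were 0.882 in B10 and 0.741 in G7.

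The oligoadenylate synthetases, which sense double-stranded RNA and activate RNase L, and their OAS-like relatives had a promoter region at *Oasl2* but not at *Oas1a*, *Oas2*, *Oas3* or *Oasl1*. *Oasl2* had a promoter region (chr5:114897230-114897942) with ranks of 43.8, 12.0 and 22.7 in WT and 11.4 and 19.3 in 2 G7 libraries. No B10 library held a peak there, so it was lost in B10 and differed in presence between the clones. Of the 6 distal members lost in both clones, 4 belonged to this family, all on chromosome 5: a region 3.87 kb upstream of *Oasl2* with WT ranks of 6.88, 3.12 and 8.24, one 2.99 kb downstream of the *Oas2* start with 7.40 and 8.24, and regions 1.71 kb downstream and 2.26 kb upstream of *Oas3* with 24.4 and 16.9 and with 1.63 and 1.85. All of these were weak WT peaks. Over the whole of chromosome 5, 426 regions were lost and 84 gained in both clones, and the median rank difference was -2.33 in B10 and -2.62 in G7. An intronic region of *Oasl1* (chr5:114926134-114927165, named after its values were seen) was lower in B10, with ranks of 27.9, 53.8 and 39.5 in WT, 11.8, 11.7 and 17.5 in B10, and 24.8, 46.2 and 37.5 in G7 (B10 minus WT -26.7 ± 7.69, SE, limma adjusted p = 0.0423). That call was lost under 9 of the 17 other settings tried. These included leaving out WT 2 (0.141), WT 3 (0.105), B10 1 (0.106), B10 2 (0.112), B10 3 (0.0795) or G7 3 (0.0666).

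*Ifi44* encodes an interferon-induced protein of the cytoplasm, and its promoter region (chr3:151749595-151750077) was the only one lost in both clones. It held weak peaks in 2 WT libraries, at ranks 15.8 and 14.2, and none in the third or in any clone library. The other interferon-induced genes of this group were not called: *Ifi27* ranked 89.6 to 93.2, *Ifi35* 95.0 to 97.6 and *Xaf1* 83.6 to 89.4 over the 9 libraries.

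Distal regions changed presence more often than promoters, as in the whole series. In B10, 5 of 64 were gained and 8 lost, against 11.7% and 8.21% of all distal regions. In G7, 8 were gained and 11 lost, against 6.21% and 8.17%. In both clones 4 were gained and 6 lost, against 3.26% and 4.76%. Of the 24 tested in rank, 3 were higher and 2 lower in B10, against 11.2% and 5.23% of all distal regions tested. In G7, 4 were higher and 0 lower, against 5.13% and 4.44%, and by limma 0 of the 24 were lower in G7 at an unadjusted p under 0.05 as well. The 4 include both *Ifitm1* regions and the *Ifitm3* region above. These lie in the chromosome 7 stretch where 183 of 194 regions were above WT in G7, so they are not separate observations. Over all members, promoters included, 7 were higher in G7, and 2 after subtraction of the local level. The median difference over the 24 was 2.53 in B10 and 1.88 in G7, and over all 35872 distal regions tested it was 1.11 and -0.354. The second region called lower in B10, 3.33 kb downstream of a *Usp18* start site (chr6:121271880-121272988, named after its values were seen), ranked 84.9 to 87.2 in WT and 79.7 to 82.6 in B10 (limma adjusted p = 0.0293), and was lost without WT 2 (0.1), WT 3 (0.103), B10 2 (0.0789) or B10 3 (0.089). By fold enrichment its difference was 2.86 (limma adjusted p = 0.462).

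The other distal regions gained in both clones were near *Isg20* and *Ifitm2*. The one 26.7 kb downstream of the *Isg20* start (chr7:78941070-78942276) had no WT peak and ranked 47.3, 41.7 and 15.9 in B10 and 17.6, 15.3 and 10.1 in G7, all 6 clone libraries. A second, 56.9 kb downstream, had very weak peaks, at ranks of 3.94 and 1.31 in B10 and 5.29 and 0.0943 in G7. The *Ifitm2* region 3.29 kb upstream ranked 41.5 and 18.6 in B10 and 39.9 and 43.0 in G7. The remaining regions lost in both clones were 63.9 kb from *Cmpk2*, an intergenic region with WT ranks of 33.1 and 20.8, and an intronic region of *Ifih1*, the gene of the RNA sensor MDA5, with WT ranks of 18.6 and 7.40.

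The clones were also set against each other, with promoter and distal regions pooled. Promoters made up 28 of the 92 member regions and 13933 of all 97338 regions. Of those tested in rank, promoters were 22 of 46 members and 11559 of 47431 regions. A peak in at least 2 of 3 libraries of 1 clone and 0 of 3 of the other was found at 6 of 92 member regions for B10 and at 7 for G7, against 8.25% and 4.24% of all regions. In rank, 1 of 46 members was higher and 4 were lower in B10 than in G7, against 4.21% and 2.39%. The 4 were the promoters of *Irf7*, *Ifitm2* and *Psmb9*+*Tap1* and the *Ifitm3* region above, all but *Psmb9*+*Tap1* in the same stretch of chromosome 7. The 1 was a region over the last exon of *Ifit3* (chr19:34588094-34588811), with ranks of 86.2, 83.6 and 78.8 in B10, 61.2, 56.9 and 35.6 in G7, and 75.3, 56.6 and 52.5 in WT.

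Libraries with the same replicate number deviated together, and the fit with that number as a block made more calls. Over the 46 members, 9 were then higher and 8 lower in B10 (4 and 4 without the block), against 21.4% and 12.1% of all regions tested. In G7 10 were higher and 4 lower (7 and 1 without), against 13.2% and 13.4%. B10 against G7 gave 4 higher and 8 lower (1 and 4 without), against 14.3% and 6.58%. Among the promoters, *Zbp1*, *Dtx3l*+*Parp9* and *Eif2ak2* were then lower in G7 and *Parp14* lower in B10. Tested regions within 5 Mb had median G7 differences of -4.85 around *Zbp1*, 0.429 around *Dtx3l*+*Parp9* and -2.00 around *Eif2ak2*. Around *Parp14* the B10 median was 0.506. Among distal regions, that of *Ifi35* 5.86 kb downstream of its start was then higher in both clones, by 13.5 and 8.48 (limma adjusted p = 0.00157 and 0.0222 with the block, 0.0755 and 0.283 without), as were the regions of *Ifit2* and *Ifit3* described above. The region over the last exon of *Ifit3* was then higher in B10 (limma adjusted p = 0.00406). The remaining added calls were *Irf1* regions in B10 (1 higher, 1 lower), *Trim25* regions in B10 (2 lower) and an *Ifitm1* region in G7 (1 higher), and no call against WT was lost.

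Of 49 other genes of the interferon pathway (ligands and receptors, kinases, STATs and IRFs, nucleic acid sensors, negative regulators, MHC class I genes and further induced genes), 46 had a promoter region, in 41 genes with a peak in every library. Each gene was counted by its strongest promoter region (by mean rank and share of libraries with a peak), while the shares are over all promoter regions. Of the 41 genes, 5 were higher and 1 lower in rank in B10, against 10.6% and 5.81% of all promoter regions tested. In G7, 2 were higher and 1 lower, against 6.2% and 5.97%. By presence, 3 of the 46 were lost in B10, 3 in G7 and 2 in both, against 3.83%, 2.97% and 1.97% of all promoter regions. *Sp100* and *Sp110*, nuclear body genes, were those 2, with ranks of 44.3, 54.0 and 59.1 and of 60.4, 53.3 and 59.4 in WT and no peak in any clone library. *Irf2*, a regulator of basal interferon-response genes, had 3 promoter regions. The strongest of them ranked 82.8, 82.5 and 79.6 in WT, 88.7, 87.7 and 86.6 in B10, and 88.5, 92.2 and 88.8 in G7 (limma adjusted p = 0.0199 and 0.00794). *Psmb10*, an immunoproteasome subunit gene, ranked 84.0 to 86.8, 89.5 to 91.1 and 90.3 to 90.7 (limma adjusted p = 0.00847 and 0.00954). *Tlr3*, the endosomal sensor of double-stranded RNA, ranked 81.4, 85.8 and 81.5 in WT, 74.5, 75.1 and 74.2 in B10, and 69.6, 71.2 and 74.1 in G7, lower in both (limma adjusted p = 0.0359 and 0.0152). *Irf2*, *Psmb10* and *Tlr3* lie on chromosome 8 with *Bst2*, where the median difference over all 2305 tested regions was 3.86 in B10 and 4.17 in G7. The B10 and G7 differences were 6.02 and 8.19 at *Irf2*, 4.99 and 5.35 at *Psmb10*, and -8.32 and -11.3 at *Tlr3*. Tested regions within 5 Mb had medians of 5.79 and 4.71, 4.22 and 4.95, and 5.70 and 5.05 in the same order. *Ptpn2*, *H2-D1* and *Irgm1* were the others higher in B10, by 1.48, 4.93 and 5.71, with medians within 5 Mb of 4.24, 3.10 and 0.514. *H2-K1* was lost in B10 and *Irf5* in G7.

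The calls were also counted by whether a promoter region held an ISRE core near its summit. Of the 10 with a match, 7 were tested, and 1 was higher and 0 lower in B10 and 1 higher and 0 lower in G7, in both clones at *Bst2*. By presence, *Isg15* was gained and *Oasl2* lost in B10. Of the 18 without a match, 15 were tested, with 0 higher and 2 lower in B10 and 2 higher and 1 lower in G7. This split reads only the 100 bases on either side of the summit. *Cxcl10*, *Ifitm2* and *Gbp3* were counted as without a match, although their 300-base promoters hold the core, as printed above. No test was made of this difference. The same split was not made over all promoter regions, so these counts have no background.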

How the data were processed

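ATAC-seq peak lists of 3 WT, 3 B10 and 3 G7 libraries of C3H/10T1/2 cells were used. Reads were checked with Rfastp 0.1.2 and aligned in pairs to mm10 with Rsubread 1.30.6, and the authors called peaks with MACS2 (version not given in the sources used here) on each library apart. The deposited lists hold a fold enrichment over background (a ratio), a −log10 p-value, a −log10 q-value and a display score for every peak. It is unclear whether an input control entered the calls, since the peak names mention one and the methods do not. Read counts were not used here, so depth is unknown and the 76385 to 88535 peaks per library stand in for it. The lowest −log10 q in a library was 1.30 or 1.31, and only its rank within the library was used.

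Peaks of the 9 libraries were merged, regions with a peak in at least 2 of 3 libraries of a line formed the consensus, and each was assigned to the closest protein-coding start site of GENCODE M21. Presence was compared without a test. Ranks were compared with limma 3.58.1 in R 4.3.3 (empirical Bayes with trend, all 9 libraries, no block), with Benjamini-Hochberg adjustment over all 47431 regions tested and a threshold of 0.05. Python 3.11.15, numpy 2.4.6 and pandas 2.3.3 were used for the rest, and the fit was run on simulated data with independent noise in each library. That run does not cover the deviations shared by replicate number that are given below. The member genes, the other gene lists and the tests were chosen with earlier results of these data known. Values are given by library for promoter regions called in a clone, distal regions gained, lost or called the same way in both clones, and regions within 5 kb of a listed start site that were left out and changed in both. Pathway genes are named where called, with values for those called in both. Deviations of libraries that share a replicate number correlated at 0.314 to 0.664 in all 9 pairs of libraries. Replicates 2 and 3 of different lines also correlated, at 0.21 to 0.311, and replicate 1 with either at -0.561 to -0.356. The number, which comes from the sample titles, was treated as pairing the libraries in an alternative fit. Other alternatives were equal numbers of peaks, a stricter q, peaks that cover at least 50% of a region, 1 start site per gene, each library left out, fold enrichment in place of q, subtraction of the level within 5 Mb, and regions with a peak in at least 2 of 3 libraries of every line.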

Additional observations from a re-analysis of the deposited data

Results flagged for a closer look

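B10 and G7 differed from each other in rank at 5 member regions, which is the test of the difference between the clones' effects against the same WT libraries (B10 minus G7, percentile points, limma with Benjamini-Hochberg adjustment over all 47431 regions). The *Irf7* promoter differed by -13.5 (adjusted p = 0.00109), with all 3 B10 libraries below all 3 G7 libraries. The *Ifitm2* promoter differed by -6.4 (adjusted p = 0.00426), and the region downstream of *Ifitm3* by -10.1 (adjusted p = 0.000658), again with no overlap between the clones. These 3 lie in the same stretch of chromosome 7, where 183 of 194 regions were above WT in G7 and 100 of 194 in B10. The shared promoter of *Psmb9* and *Tap1* differed by -12.3 (adjusted p = 0.00254), with B10 as the line that differed from WT. By fold enrichment or its log2, no member was called lower in B10 than in G7, so the *Irf7*, *Ifitm2*, *Ifitm3* and *Psmb9*+*Tap1* calls were lost. After subtraction of the local level fewer members were called lower in B10 than in the main fit. The region over the last exon of *Ifit3* differed by 31.6 (adjusted p = 0.0369), with B10 at 78.8 to 86.2 and G7 at 35.6 to 61.2, and neither clone was called against WT there unless the replicate number was a block, where B10 was higher (adjusted p = 0.00406).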

How the results depend on the processing

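Counts of member regions that moved by more than 1.5 times are given here, and the cause was not tested unless stated. With a −log10 q of at least 10 on the present side, 1 region was gained and 0 lost in B10 (6 and 10 in the main comparison), 3 gained and 1 lost in G7 (8 and 12), 0 gained and 0 lost in both (4 and 7), and 2 were only in B10 and 0 only in G7 (6 and 7). Regions only in G7 numbered 11 with equal numbers of peaks and 11 when peaks had to cover 50% of a region. Without replicate 1 of every line, which leaves fewer libraries that must all agree, 5 were lost in B10, 5 gained and 6 lost in G7, 2 gained and 3 lost in both, and 2 were only in G7. In rank that setting gave 9 higher and 7 lower in B10 (4 and 4), 3 lower in G7 (1), and 4 higher and 9 lower in B10 against G7 (1 and 4). Ranking by fold enrichment gave 2 higher and 0 lower in B10, 1 higher and 0 lower in G7 (7 and 1) and 0 lower in B10 against G7, and log2 fold enrichment gave 1 and 0, 1 and 0, and 0. Subtracting the local level gave 2 higher in G7 and 2 lower in B10 against G7. With 1 start site per gene, or regions with a peak in at least 2 of 3 libraries of every line, 2 were lower in G7 and 2 higher in B10 against G7. With the replicate number as a block, 9 were higher and 8 lower in B10, 4 lower in G7, and 4 higher and 8 lower in B10 against G7. The block together with the local level, an alternative added after the data were seen, gave 9 and 8, 5 lower in G7 and 3 higher in B10 against G7.

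With 1 library left out, presence on its side needs all the remaining libraries. For B10, 3 to 8 regions were then gained and 5 to 14 lost. For G7, gains numbered 2 to 12 and losses 4 to 14. Gains shared by the clones numbered 1 to 5 and shared losses 2 to 8. Regions only in B10 numbered 3 to 7 and only in G7 2 to 10. Losses fell furthest without a WT library (5, 5 and 6 in B10 and 6, 4 and 6 in G7 without WT 1, 2 and 3, and 3, 2 and 4 in both), and gains without a library of the clone (3 in B10 without B10 1, and 3, 5 and 2 in G7 without G7 1, 2 and 3). In rank, 1 to 8 were higher and 1 to 5 lower in B10, 5 to 9 higher and 0 to 1 lower in G7, and 0 to 2 higher and 4 lower in B10 against G7. The B10 counts moved most without WT 1 (8 higher), B10 3 (1 higher), and WT 2, WT 3 or B10 2 (1 lower each).

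The 16 named rank differences were followed through 17 settings, 272 values in all: 192 kept their direction and their side of the threshold, 70 kept the direction only, and 10 changed sign. These were *Gbp3* in G7 (3.52 by fold enrichment, 0.0924 in log2 fold enrichment), *Ifitm2* in G7 (-1.03, -0.0225, and -3.24 after subtraction of the local level, also -3.24 with the block), the *Ifitm3* region in G7 (-2.37 and -0.064) and the *Usp18* region in B10 (2.86 and 0.0748). *Bst2* kept its calls in both clones throughout. Depth is unknown, so weak peaks that are missing from a library cannot be told from closed chromatin.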
